A study of Mus musculus with 2 samples.

Results

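The 2-cell-stage and oocyte gene clusters of the mouse were examined for EHMT2 occupancy. Members were taken by symbol, as GENCODE vM21 gene records that begin with Tdpoz, Usp17l, Pramel, Pramef, Oog, Tcstv, Trim43 or Duxf, together with Gm13040, which was added with its strong peak already known. This gave 36 of 55413 gene records on chromosomes 1 to 19, X and Y, of which 33 were protein coding. Members less than 500 kb apart were joined and 100 kb was added on either side, which gave 10 clusters of 4.71 Mb in all, or 0.173% of the assembled genome. Each cluster is named below by its members. Of 12554 EHMT2 peaks on these chromosomes, 29 had their summit in a cluster, and these are numbered along each cluster.

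EHMT2 was mapped by ChIP-exo, in which an exonuclease trims the immunoprecipitated DNA up to the crosslinked protein, with an antibody against the HA tag. The cells were mouse embryonic stem cells (mESCs) of the line EHMT2-dTAG-mcherry on a BL6/129 hybrid background, in which a degron and an HA epitope were fused to the end of the endogenous EHMT2 protein. They were grown on feeders with FBS and LIF and held in the solvent DMSO for 24 h, so that the degron was not engaged, and there were 2 replicates. Both replicates belong to this single group, and the peak list is named as that of the merged replicates, so that no value below has a replicate error. No library of a control antibody, of untagged cells or of depleted cells was analysed here. No RNA was measured in these libraries, so the stage at which each gene is expressed is background knowledge and was not checked in the data.

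EHMT2, also called G9a, is a histone methyltransferase that works with EHMT1 to place H3K9me2, a mark of silent chromatin. The genes in question are known from the embryo around genome activation and from the oocyte, and most lie in tandem arrays of near-identical copies. Duxf3, known as Dux, encodes a double homeobox transcription factor that switches on 2-cell-stage genes. Tcstv and Trim43 genes are transcribed around the 2-cell stage. Usp17l genes encode deubiquitinating enzymes, Tdpoz genes encode proteins with a MATH and a BTB domain, and the Pramel, Pramef and Oog genes encode leucine-rich repeat proteins related to PRAME.

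The strongest peaks in the clusters carried copies of 1 sequence. When the 300 bp around each summit were aligned to each other, 6 of the 29 peaks, in 6 different clusters, formed the largest group (at least 80% identity over at least 150 bp). All 6 held an identical stretch of 21 bases, shown in capitals in 120 bp centred on it. The printed bases do not contain the summit in Pramef/Oog 2, Oog1 1, Tcstv 6 and Pramel3 2. In Pramef/Oog 2, Oog1 1 and Tcstv 6 the stretch occurred 2 times near the summit, and 1 of these is shown. Each sequence is from GRCm38.p6, which has the coordinates of mm10, and reads 5′ to 3′ on the strand given, with all 6 in the same orientation. They are shown because they link the peaks upstream of Gm13040, Oog1 and Tcstv3 to each other.
Pramef/Oog 2, upstream of Gm13040, chr4:143533873-143533992, minus strand: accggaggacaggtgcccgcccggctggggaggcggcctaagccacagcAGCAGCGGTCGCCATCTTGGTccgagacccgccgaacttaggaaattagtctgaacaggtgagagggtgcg
Oog1 1, upstream of Oog1, chr12:87598347-87598466, minus strand: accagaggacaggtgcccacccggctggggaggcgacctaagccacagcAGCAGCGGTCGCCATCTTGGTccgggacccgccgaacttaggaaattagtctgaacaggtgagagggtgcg
Tcstv 6, upstream of Tcstv3, chr13:120290431-120290550, plus strand: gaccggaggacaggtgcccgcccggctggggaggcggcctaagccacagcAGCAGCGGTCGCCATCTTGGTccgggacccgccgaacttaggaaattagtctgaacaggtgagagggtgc
Usp17l distal 1, chr7:104721303-104721422, minus strand: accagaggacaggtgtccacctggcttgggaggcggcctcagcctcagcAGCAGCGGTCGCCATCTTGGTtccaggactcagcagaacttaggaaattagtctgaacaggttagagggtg
Pramel3 2, chrX:135394246-135394365, plus strand: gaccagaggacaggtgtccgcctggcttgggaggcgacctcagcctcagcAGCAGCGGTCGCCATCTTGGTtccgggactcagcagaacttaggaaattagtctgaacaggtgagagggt
Trim43 2, chr9:89041192-89041311, plus strand: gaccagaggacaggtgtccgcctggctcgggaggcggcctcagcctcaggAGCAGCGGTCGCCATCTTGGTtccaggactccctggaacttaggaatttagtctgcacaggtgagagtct

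Over the aligned parts, the 6 peaks were 86.5% to 98.8% identical to each other, and the 3 strongest (Pramef/Oog 2, Oog1 1 and Tcstv 6) were 98.3% to 98.8% identical. Fold enrichment, which the authors' peak caller gives as fragments over the summit divided by a local background, each plus 1, was 18.3 at Pramef/Oog 2, 13.7 at Oog1 1 and 9.91 at Tcstv 6. It was 7.53 at Usp17l distal 1, 6.42 at Pramel3 2 and 5.34 at Trim43 2. The summit of Pramef/Oog 2 was covered by 72 fragments, that of Oog1 1 by 54 and that of Tcstv 6 by 35. These were the 3 deepest of the 29 summits, and Pramef/Oog 2 ranked 18 by fold among all peaks. The others of the group had 10 to 18 fragments.

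The group was GC-rich, with 59.5% to 67.0% GC within 100 bp of the summit, whereas the median over all 29 cluster peaks was 48.5% and over all other peaks 51.0%. Its members lay entirely in soft-masked sequence, which marks repeats. In 5 of the 6, the summit was 1607 to 2645 bp upstream of an open reading frame of at least 1000 codons that carried the letters YADD or FADD of a reverse transcriptase active site, and the printed strand was that of the frame. Trim43 2 had none within 3 kb. Frames of this kind are known from LINE-1 retrotransposons, whose second open reading frame encodes a reverse transcriptase, but no repeat annotation was used here. Upstream of Gm13040 and of Oog1 the frame ran away from the gene on the opposite strand, whereas upstream of Tcstv3 it had the strand of the gene. None of these frames overlapped the nearest member.

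The shared stretch was found throughout the genome, on either strand, in 7599 copies, and 5121 of them (67.4%) lay in a called EHMT2 peak. Of all peaks, 15.4% held it within 150 bp of the summit, against 2 of 32851 RefSeq promoters of the same length of 300 bases. Peaks with it had a median fold of 10.9 and peaks without it 4.93. Both comparisons are descriptions, since the stretch was taken from these peaks and the promoters were not matched to them on repeats. The clusters held 18 copies, 3.82 per Mb against 2.79 per Mb in the genome, and 12 of the 18 lay in a peak. All 3 copies were in a peak in each of the Pramef/Oog, Oog1 and Tcstv clusters, as was the 1 copy in the Pramel3 cluster, and 1 of 2 in each of the Usp17l distal and Trim43 clusters. The 1 copy in the Usp17l proximal cluster and the 3 in the Tdpoz cluster were not. The stretch was defined by the peaks of the 6 clusters that had a copy in a peak. At least 1 copy in each of these was therefore present, and lay in a peak, by construction. The clusters cannot be compared on this count, nor can their density of copies be compared with that of the genome. Reads that fit several sites equally well had been placed at 1 of them at random. Copies with the same letters over a whole read therefore do not give independent measurements, and which of them EHMT2 occupied cannot be told. Longer sequence had fewer copies. The 100 bp at the summit occurred once in the assembly for Usp17l distal 1 and 17 to 738 times for the others of the group. How well reads could be placed at each peak was not tested.

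Whether EHMT2 peaks were more frequent in these clusters than elsewhere was asked by counting. The 29 summits gave 6.15 per Mb, whereas the genome had 4.61 per Mb. Sets of random intervals of the same lengths on the same chromosomes held 23.2 summits on average (central 95% of the sets 13 to 36, a range given the same way for single clusters below), and 18.1% of 10000 sets held as many or more. The total thus lay inside the range of the intervals. Of the 10 clusters, 8 held a summit, 7 held more than the mean of their intervals, and none lay outside the range of its intervals. The 7 include Oog1 and Usp17l distal, where 58.6% and 50.4% of intervals held as many or more. When intervals were matched to each cluster on the share of soft-masked bases, their mean was 30.3 and the clusters' 29 summits lay below it.

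**Figure D1:**
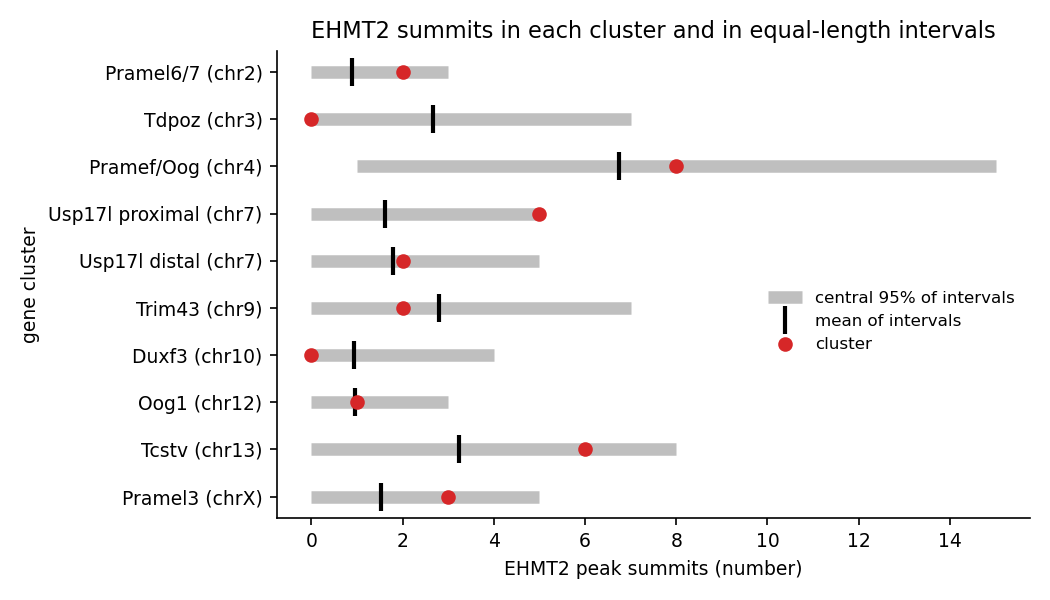
EHMT2 summits (x axis, number) in each of the 10 clusters (red points) with the mean (black tick) and the central 95% (grey bar) of 10000 random intervals of equal length on the same chromosome. All 10 points lie on or inside the grey bars, from 0 summits at Tdpoz and Duxf3 to 8 at Pramef/Oog.

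The cluster of Duxf3, the transcription factor of the 2-cell programme, held no summit (chr10:58129979-58332675, 203 kb). Random intervals of this length held 0.943 summits on average and 43.5% of them held none, so an absence was common at this length. In addition, 37.4% of the cluster was N bases, in which no peak can be called. The nearest summit to the transcription start site (TSS) of Duxf3 lay 466 kb away, outside the cluster. It had a fold of 12.3 and 48 fragments.

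The Tcstv cluster (chr13:119793388-120418178, 625 kb, 15.5% N bases) held 6 summits, with an interval mean of 3.23 (range 0 to 8), and 14.7% of intervals held as many. Tcstv3 had its nearest summit, Tcstv 6, 26.3 kb upstream, but the gene nearest to that summit was BC147527, at 9.81 kb. Tcstv1 had its nearest summit 134 kb upstream. Between Tcstv1 and Tcstv3 lay the peaks Tcstv 1 to 4, within 7.72 kb of each other and 99.4% to 100% identical over their aligned parts. Unlike most cluster peaks they held no soft-masked base, and no other peak of the genome aligned to them. The sequence of Tcstv 1 is shown with the 50 bp centred on the summit in capitals.
Tcstv 1, chr13:120028453-120028572, plus strand: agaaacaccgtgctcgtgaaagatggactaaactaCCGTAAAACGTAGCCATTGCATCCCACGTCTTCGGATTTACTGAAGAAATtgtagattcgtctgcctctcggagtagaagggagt

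This 50-mer occurred 3 times in the assembly, all on chromosome 13 within 7.72 kb, and the copies lay in the peaks Tcstv 1, 3 and 4. The summit 50-mer of Tcstv 2 occurred 20 times within 12.3 kb, with a median spacing of 339 bp, so that these peaks lie in a local tandem array. Tcstv 1 and 2 fell in the promoter of the predicted gene Gm36079 and Tcstv 4 in an intron of the predicted gene Gm21188. The 4 summits had 17 to 26 fragments but folds of 2.97 to 6.77, since the local background was 2.55 to 5.12 fragments against a median of 0.709 over all peaks. Of all peaks, 8.49% had a background as high as the lowest of these. When peaks under 10 kb apart were counted once, the cluster had 3 summits and 52.2% of intervals had as many.

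The Usp17l genes, which encode deubiquitinating enzymes, formed a proximal and a distal cluster on chromosome 7. The proximal cluster (chr7:103149737-103519880, 370 kb) had the highest density of all 10, with 5 summits or 13.5 per Mb. Its intervals held 1.61 on average (range 0 to 5), and 4.13% of them held as many. Only 2 of the 5 lay between the outer ends of Usp17ld and Usp17lc, while the others were in the flanks among olfactory receptor genes such as Olfr589. With intervals matched on soft-masked share, 11.8% held as many. The strongest, Usp17l proximal 3, had a fold of 7.12 and 18 fragments and lay 30.6 kb upstream of Usp17ld. It was GC-rich (62.5%) and 1802 bp upstream of a frame of 1281 codons, but its sequence did not group with the 6 above. It is shown with its summit 50-mer in capitals, which had 3911 copies.
Usp17l proximal 3, chr7:103283048-103283167, plus strand: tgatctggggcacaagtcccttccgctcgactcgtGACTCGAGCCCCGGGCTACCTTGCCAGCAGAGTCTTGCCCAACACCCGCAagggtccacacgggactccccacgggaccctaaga

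A summit also lay inside the gene Usp17lc, 0.614 kb downstream of its TSS which is just past the end of the promoter as defined below. This peak had a fold of 4.17 on 5 fragments, and its 50-mer had 96 copies. The distal cluster (chr7:104552252-104962667, 410 kb) held 2 summits against an interval mean of 1.78, with as many in 50.4% of intervals. Its 4 records, Usp17la, Usp17lb, Usp17le and the pseudogene Usp17le-ps, had their nearest summits 25.5 to 69.1 kb away.

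The 5 Tdpoz genes (chr3:93551542-94061314, 510 kb) had no summit in their cluster, although the longer cluster given by RefSeq symbols (7 records, chr3:93551542-94172644) had 1, with an interval mean of 3.25. Intervals of 510 kb, the length of the first cluster, held 2.67 on average (range 0 to 7), and 8.68% held none. The nearest summit was 198 kb from Tdpoz5 and 507 kb from Tdpoz2, and the other 3 genes lay between these values. The cluster had no N bases, 47.6% soft-masked bases, which is near the values of the other clusters (34.1% to 55.3%), and 3 open frames of at least 1000 codons. With 250 kb added on either side it held 1 summit, where intervals held 4.23. Of all 36 members, 4 of the 5 Tdpoz genes and Duxf3 were the farthest from an EHMT2 summit, at 334 kb or more, followed by Pramef6 at 220 kb.

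The 3 Trim43 genes, which encode tripartite motif proteins, lay in a cluster with 2 summits (chr9:88480891-89192835, 712 kb), and the interval mean was 2.80. Trim43b and Trim43c were 51.6 and 50.9 kb from the nearest summit, and Trim43a was 156 kb from one.

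The PRAME-related genes made up most of the members. The Pramef/Oog cluster (chr4:143294428-144508464, 1214 kb) contained 14 of the 36 records and 8 summits, close to the interval mean of 6.74 (range 1 to 15). Folds ran from 3.46 to 18.3 with a median of 5.12, and fragments from 4 to 72. The summits were uneven within the array, with 5 on the side of Pramef8 and Gm13040 and 3 on the side of Oog3, Oog2 and Pramef20. In the middle, Pramef6, Pramef25 and Pramef17 had their nearest summits 155 to 220 kb away. Gm13040, a predicted gene, had the strongest cluster peak 1.927 kb upstream of its TSS, and this peak held its own summit 50-mer 3 times.

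Pramef8 had a summit 382 bp downstream of its TSS, with a fold of 5.79 on 9 fragments. Its 50-mer occurred once in the assembly and no other peak aligned to it. Only 39.9% of this peak was soft-masked, and the 300 bp around the summit held 25 CpG dinucleotides, as many as Tcstv 6, although its GC content was 48.5%. Thus the 2 member promoters with a summit differed, as that of Gm13040 held a sequence with 2312 copies and that of Pramef8 a unique one. A second unique 50-mer was at Pramef/Oog 3, 40.7 kb downstream of Gm13040, with a fold of 3.46 on 4 fragments.

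The remaining PRAME-related clusters were small. Oog1 (chr12:87502688-87708850, 206 kb, 25.7% N bases) had 1 summit, and the interval mean was 0.947. That summit lay 4.365 kb upstream of Oog1. The Pramel3 cluster (chrX:135170853-135412652, 242 kb) had 3 summits against a mean of 1.54, and 22.6% of intervals had as many. The nearest to Pramel3 was 4.445 kb upstream, with a fold of 4.14 on 6 fragments, and the other 2 were 92.1 and 93.0 kb downstream. The Pramel6/7 cluster (chr2:87389087-87610872, 222 kb) had 2 summits against 0.896, both in the flank, 47.9 and 88.7 kb downstream of Pramel6 with folds of 5.00 and 3.55.

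**Figure D2:**
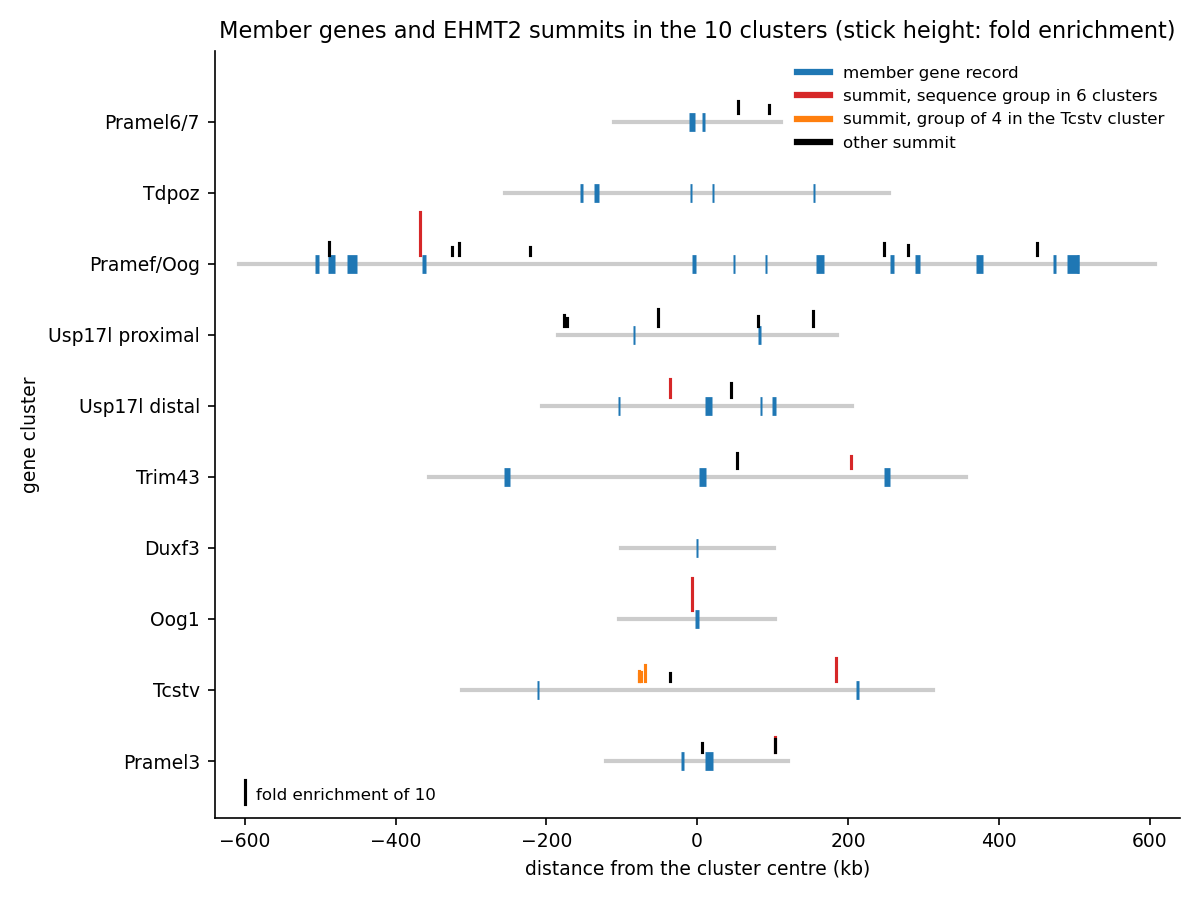
Map of the 10 clusters, with distance from the cluster centre in kb on the x axis, member gene records as blue blocks and summits as sticks whose height is the fold enrichment (scale stick, fold of 10). Red sticks are the 6 peaks of the shared sequence, orange sticks the 4 tandem peaks of the Tcstv cluster and black sticks the others, and the tallest stands next to Gm13040 in the Pramef/Oog cluster. The red stick of Pramel3 is mostly hidden by a black one 0.9 kb away.

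Counted by gene rather than by region, promoters, taken from 2.5 kb upstream to 0.5 kb downstream of the TSS, held a summit in 2 of the 36 members. This is 5.56% (95% Wilson interval 1.54% to 18.1%), and among all gene records the percentage was 1.30%. Without Gm13040 the count was 1 of 35. Within 10 kb of the TSS a summit was found for 6 members, Pramef8, Usp17lc, Gm13040, Oog1, Pramel3 and Oog2, in order of distance, which is 16.7% (7.87% to 31.9%) against 6.60% of all records. Without Gm13040 it was 5 of 35, or 14.3%, and the Wilson interval of 6.26% to 29.4% then included the percentage of all records. With peaks at a q-value of 0.001 or lower, 3 of the 36 members (8.33%, 2.87% to 21.8%) and 3.84% of all records had a summit within 10 kb. Within 50 kb it was found for 16, or 44.4% (29.5% to 60.4%), against 31.2%. Members had a median distance of 51.9 kb (quartiles 25.4 and 155 kb), and all gene records 95.5 kb. Records in 1 cluster share their peaks and are not independent, and the intervals cover counting error only.

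When only the summits with a 50-mer found once in the assembly were counted, 1 of the 36 members, Pramef8, had a summit within 10 kb (2.78%, 0.492% to 14.2%), and 2.37% of all records did. The counts by family are again for all peaks, of which 6.60% of all records had a summit within 10 kb. Such a summit was found for 2 of 4 Oog genes, 1 of 7 Pramef records, 1 of 7 Pramel records and 1 of 6 Usp17l records. Gm13040 also had one, and none of the Tdpoz, Trim43, Tcstv or Duxf records did. Other genes known from the 2-cell stage or the oocyte were listed by name, and 37 of 38 listed were found. With all peaks counted, none had a summit in its promoter, against 1.30% of all gene records. Within 10 kb there were 2 (5.41%, against 6.60% of all records), which were Zp3 at 2.222 kb and Spz1 at 4.406 kb. Within 50 kb there were 12 (32.4%, against 31.2%).

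**Figure D3:**
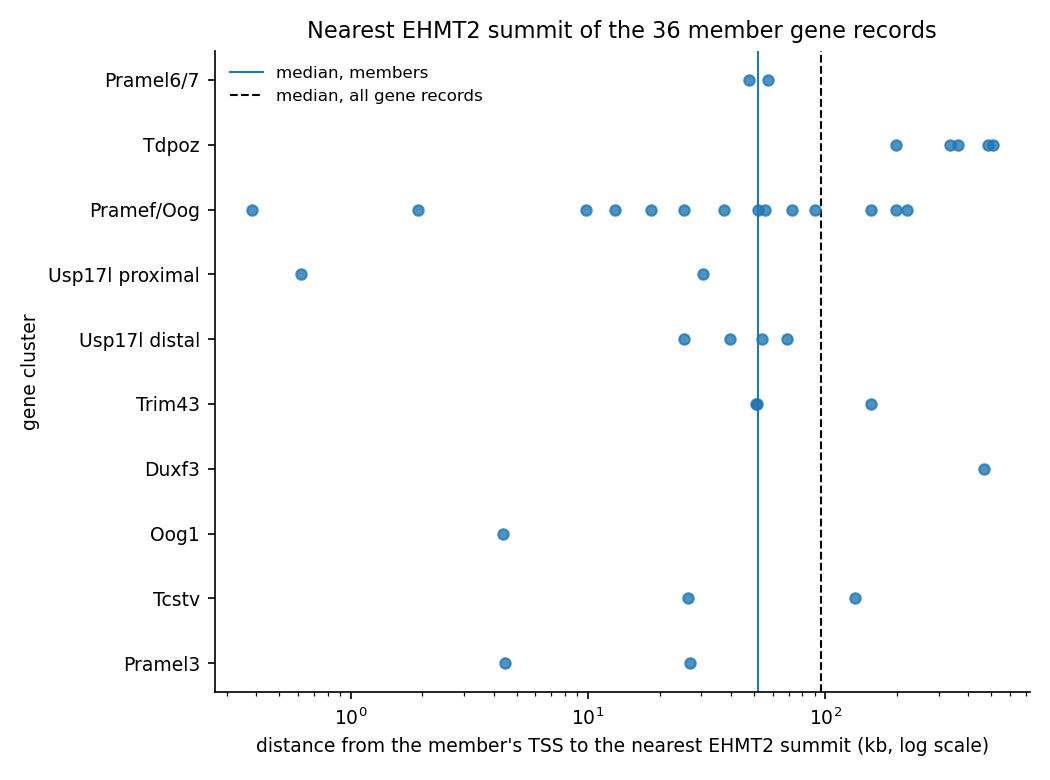
Distance from each member's TSS to the nearest EHMT2 summit (x axis, kb, log scale), with 1 point for each of the 36 records, by cluster. The blue line is the median of the members at 51.9 kb and the dashed line that of all gene records at 95.5 kb, and the Tdpoz and Duxf3 points lie at 198 kb or more.

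The 29 cluster peaks were set beside the other 12525 peaks. Their median fold was 5.27 (quartiles 4.14 and 6.29), and that of the others was 5.23. The median summit was covered by 9 fragments, against 8. Soft-masked bases made up 84.9% of the cluster peaks and 89.5% of the others. The summit 50-mer was repeated in 27 of 29 (93.1%, Wilson interval 78.0% to 98.1%) and in 80.9% of the others, and it had over 1000 copies in 9 (31.0%) and 32.0%. Summits within 3 kb upstream of a long open frame made up 27.6% (14.7% to 45.7%) of the cluster peaks and 26.0% of the others. Promoters of any gene held 6 of the 29 summits (20.7%, 9.85% to 38.4%), against 5.32% of the others. These were the promoters of Gm13040, Pramef8, Olfr589, the miRNA record Gm25774 and, for 2 summits of the Tcstv tandem array, Gm36079. A further 2 of the 29 lay in introns and 21 between genes. The clusters were drawn around genes and the other peaks were not matched on gene density, so the promoter shares cannot be compared directly.

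**Figure D4:**
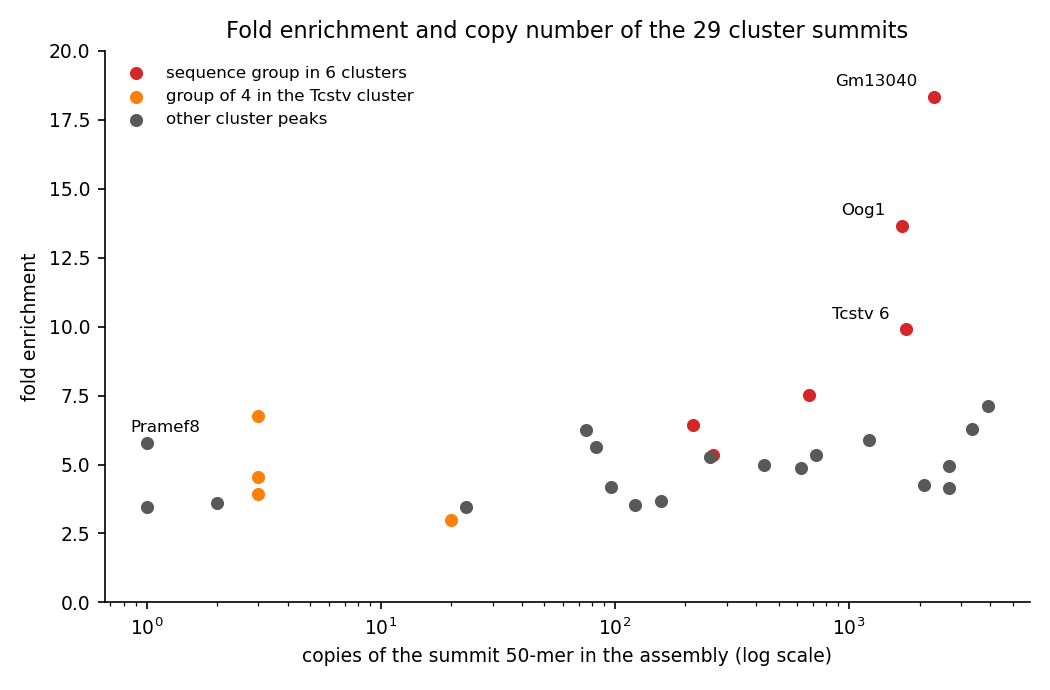
Fold enrichment (y axis) of the 29 cluster summits against the number of copies of the summit 50-mer in the assembly (x axis, log scale). Red points are the 6 peaks of the shared sequence, orange points the 4 tandem Tcstv peaks and grey points the others, and the 3 folds above 9 all belong to the shared sequence with 1681 to 2312 copies.

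Sequences with many copies differed in how often those copies lay in a peak. For Pramef/Oog 2, 1906 of 2309 copies of its 50-mer outside that peak (82.5%) lay in another called peak. The share was 82.3% for Oog1 1 and 81.3% for Tcstv 6. For the other 3 of the group it was 24.5% to 38.5%. In contrast, Pramef/Oog 7, the peak 9.81 kb upstream of Oog2, had 2081 other copies, of which 2 (0.0961%) lay in a peak, and Pramef/Oog 6 near Oog3 had 2683, of which 20 did (0.745%). Among the 15 peaks outside the group with more than 50 other copies, the median share was 2.36% and the highest was 53.1%, at Usp17l proximal 3. The weak peaks near Oog2, Oog3 and Pramel3 thus stood at sequences that were rarely called elsewhere. Those upstream of Gm13040, Oog1 and Tcstv3, at 1.927, 4.365 and 26.3 kb, stood at one that was called at most copies. Reads that fit several copies equally well had been placed at random among them. Called copies are therefore not independent, and the shares only describe the peak list.

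**Figure D5:**
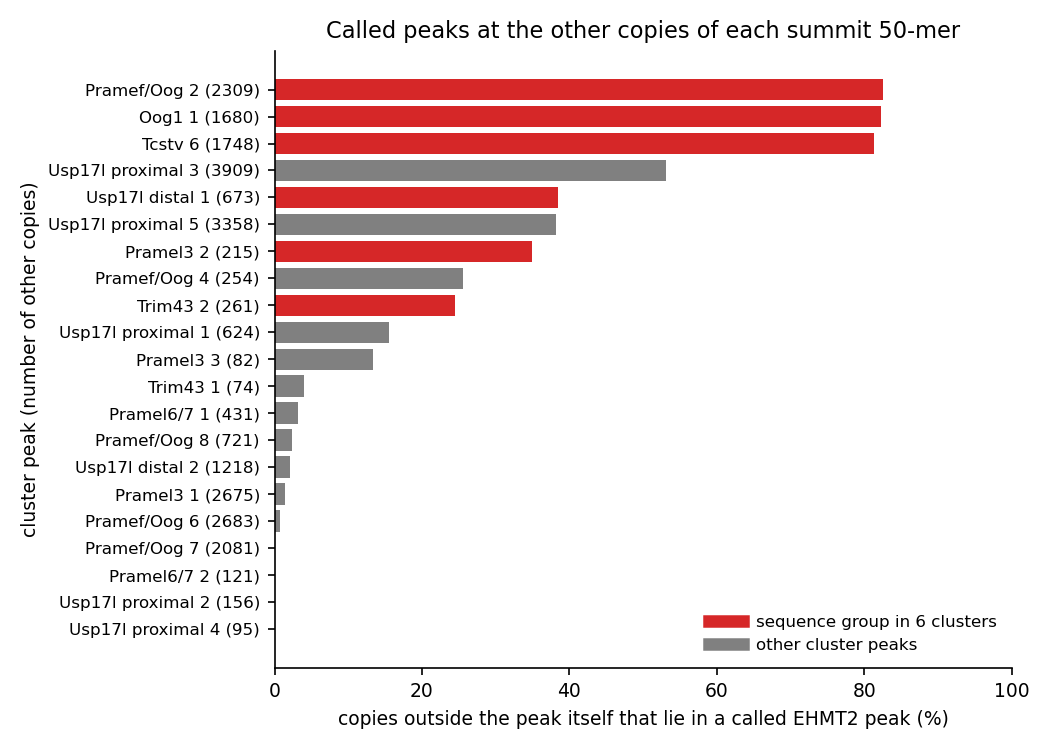
For each cluster peak with more than 50 other copies of its summit 50-mer, the bar gives the percentage of those copies that lay in a called EHMT2 peak, with the number of copies in brackets. Red bars are the peaks of the shared sequence and grey bars the others, and the top 3, at 81.3% to 82.5%, are Pramef/Oog 2, Oog1 1 and Tcstv 6.

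Other gene arrays gave a reference for the density of summits. Olfactory and vomeronasal receptor genes (1972 records, 82.2 Mb, built by the same rule) had 5.66 summits per Mb, and 0.913% of their promoters held one. Zinc-finger genes of the Zfp series (417 records, 66.7 Mb) had 3.97 per Mb and 2.88%. The clusters described here had 6.15 per Mb, and the differences between these arrays were not tested.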

How the data were processed

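The peaks came from 2 anti-HA ChIP-exo replicates of 1 group, EHMT2-dTAG mESCs held in DMSO. The submitters' processing notes name STAR 2.7.10, Picard 2.26.0, SAMtools 1.14, bedtools 2.30.0, MACS2 2.2.6 and deepTools 3.5.1, and the build mm10. According to the study's methods, the authors kept reads with many sites at 1 randomly chosen best site and removed duplicates and blacklisted High Signal Regions. They called peaks with MACS2 without a stated control. That the replicates were merged is taken from the name of the deposited list. The deposited list of 12556 peaks gives positions, a score (the −log10 q, multiplied by 10 and truncated), the fold enrichment as a ratio, and the −log10 p-value and −log10 q-value at the summit, all as the authors' caller wrote them. The list is smaller than the number of ChIP-exo peaks the study gives, and whether it is the same list was not established. The 2 mitochondrial peaks were left out.

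Fragments at each summit were solved from the deposited fold and −log10 p. A whole number fitted within 0.0001 for 100% of peaks (1 solution for 99.96%). These depths, a median of 8 fragments per summit, set the precision, and the total depth of each replicate is not known here. Members and gene lists were chosen with earlier results of these data known, so no p-value is given. Cluster counts were set beside 10000 random intervals of equal length on the same chromosome with a share of N bases no larger than 5% or that of the cluster. The counting was tested on simulated data. Copies of the 50 bp at each summit were counted as exact matches on both strands of GRCm38.p6. Cluster peaks were compared with each other and with all peaks by blastn 2.17.0. Promoter sequences were from RefSeq on GRCm38.p6. Open frames were read from the assembly outside annotated coding sequence, and 78.1% of the 5285 frames carried YADD or FADD. Python 3.11.15, numpy 2.4.6, scipy 1.17.1 and matplotlib 3.10.9 were used.

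Named items were every cluster, members with a promoter summit, the member nearest to each of the 10 strongest cluster peaks, and the strongest peak of each cluster. Sequences were to be the strongest peaks of the 4 clusters with the most peaks and up to 2 in member promoters. That of Pramef8 lies in an exon and is not shown. The sequences of Oog1 1, Usp17l distal 1, Trim43 2 and Tcstv 1 and the shared 21 bases were chosen after their values were seen. Alternatives covered the q-value, flank, joining distance, intervals, promoter and distance limits, merged peaks, unique summits and frames, and those on RefSeq symbols, on leaving out Gm13040 and on unique summits for members were chosen after seeing the data.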

Additional observations from a re-analysis of the deposited data

How the results depend on the processing

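No paired analysis was possible because there was 1 group with 1 peak list for its merged replicates, and leaving out a replicate was not run for the same reason. Of 64 alternative values, 56 were classed as the same, 6 as moved and 2 as turned. Some of the 56 say little. Joining members under 1 Mb or leaving out Gm13040 gave the same 10 clusters, so the total was bound to stay at 29. The share of member promoters with a summit was classed as the same at 2.86% without Gm13040, against 5.56% with it. The total turned against its reference with intervals matched on soft-masked share (29 summits, interval mean 30.3) and with unique summit 50-mers only (2 summits, interval mean 4.55), where 4 clusters and 1 cluster exceeded their mean in place of 7. It moved to 45 (interval mean 37.0) with flanks of 250 kb and to 52 (interval mean 41.9, range 26 to 60) with members taken by RefSeq symbols, while staying above the mean. The share of members near a summit moved from 16.7% to 44.4% when the distance was 50 kb in place of 10 kb. It moved to 2.78% (all gene records 2.37%) when only unique summit 50-mers counted. With the q-value limit at 0.001 it was 8.33% (all gene records 3.84%), which was classed as the same and stayed within the interval of the first count. The causes of these moves, and of those of the totals, were not tested. Depth limits weak peaks, since 9 of the 29 (31.0%) rested on 6 or fewer fragments, as did 35.7% of all other peaks.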

Other observations

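RefSeq symbols on the same assembly name 73 records of these families in 15 clusters, of which 5 are not among the 10 above, and these were looked at after the data were seen. The largest of the 5 holds 18 Pramel records on chromosome 5 (chr5:93381827-95836173) and had 13 summits, with a mean of 13.2 in equal-length intervals. Pramel17 to Pramel19 on chromosome 4 (chr4:101734969-102043183) had 5 summits, with an interval mean of 1.73 (range 0 to 5), and 5.58% of intervals held as many. Pramel51 and Pramel32 had 2 summits each in their clusters, and Tdpoz8 had none in its own, where intervals held 1.09 on average.

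The 3 strongest cluster peaks, upstream of Gm13040, Oog1 and Tcstv3, shared an identical stretch of 114 bases within 150 bp of their summits. It was present in 439 of all peaks (3.50%), whose median fold was 11.8.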
